A study of Mus musculus with 6 samples.

Results

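The genes of the proteasome were followed in injured mouse kidney, in 3 libraries from tacrolimus-treated animals and 3 from saline-treated animals. The members are the protein-coding genes of the deposited table whose symbol starts with Psm, then a letter from a to g and a digit. The inducible catalytic subunits Psmb8, Psmb9 and Psmb10 were left out of the set. The rule used names alone and no measured value. It found 48 genes among 21969 protein-coding genes and 56747 genes in all. The tacrolimus group had been given oral tacrolimus, a calcineurin inhibitor used as an immunosuppressant, at 1 mg/kg/day for 1 day. The saline group had been given oral saline, although its sample label gives the treatment as none. Both groups were male wild-type C57BL/6J mice, an inbred strain, and all kidneys had 30 min of ischemia and 24 h of reperfusion. The design text words the ischemia as occlusion of both renal arteries for tacrolimus, and as partial and bilateral for saline, so a difference in surgery and the drug cannot be told apart. The series title names another drug, zafirlukast, whereas the sample labels name tacrolimus. None of the libraries is from an uninjured kidney, and every value compares injured kidney with injured kidney.

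The proteasome is the protease that degrades ubiquitin-tagged proteins in the cytosol and nucleus. Its barrel-shaped core has outer alpha rings that gate entry and inner beta rings that hold the cutting sites. A regulatory cap, built of a ring of ATPases and of non-ATPase subunits, binds the ubiquitin tag, removes it and threads the protein into the core. Other caps can bind the core in its place, and dedicated chaperones put the rings together. Cells coordinate the transcription of these genes, in mammals through the transcription factor NFE2L1, which responds when proteasome capacity falls short.

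The libraries held 38443534 to 44476844 counts assigned to genes, and genes of the mitochondrial genome took 16.0 to 17.0% of them with tacrolimus and 17.0 to 19.3% with saline. Whether each library came from its own animal is not stated in the labels, and the p-values rest on the spread among the libraries, which may be technical. Saline replicate 1 was closer to the tacrolimus libraries than to the other saline libraries. Over the genes tested, its root mean square difference from the tacrolimus libraries was 0.291 to 0.304 on the log2 scale. The same measure was 0.495 against saline replicate 2 and 0.629 against replicate 3. Between saline replicates 2 and 3 it was 0.444, so these also differed from each other. Among the tacrolimus libraries it was 0.269 to 0.306. The counts and medians over members are therefore given with and without saline replicate 1, whereas many single genes are given with all libraries only. That library was singled out by its values in these same data. The p-values without it therefore describe how the results depend on that library and are not independent tests. Proximal tubule markers, which define the main epithelium of the kidney cortex, were detected in every library, and the tissue is labelled as kidney. Their summed level was lower in saline replicates 2 and 3 than in the other libraries.

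Transcripts of most proteasome genes were somewhat lower with tacrolimus than with saline, and none of these differences passed the test across all genes. Levels are counts scaled to library size by the TMM method (CPM), unless the authors' length-scaled values (FPKM) are named. Differences are log2 fold changes of tacrolimus over saline from edgeR's quasi-likelihood test. Where ± follows a log2 fold change, it gives a standard error derived from that value and the F statistic of the test. Adjusted p-values are Benjamini-Hochberg values over all 17557 genes tested, and a gene was called at an adjusted p under 0.05. Of the 48 members 46 passed the filter on low counts, and the log2 fold change was below 0 in 41 of them (89.1%), against 50.7% of all genes tested. The median was -0.21 over the members and -0.0069 over all genes. edgeR called 0 of 46 members, against 0.0114% of all genes (2 of 17557), and DESeq2 also called 0 members, against 1.96% of all genes. At an unadjusted p under 0.05, 3 members were lower, namely Psmd11, Psmd10 and Psma3, and 0 were higher, against 7.72% and 4.94% of all genes. In 11 of 46 members (23.9%) every tacrolimus library was below every saline library, against 11.0% of all genes. In 1 of 46 members (2.17%) every tacrolimus library was above every saline library, against 10.7% of all genes. In both directions together the groups were apart in 12 of 46 members (26.1%), against 21.8% of all genes.

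**Figure D1:**
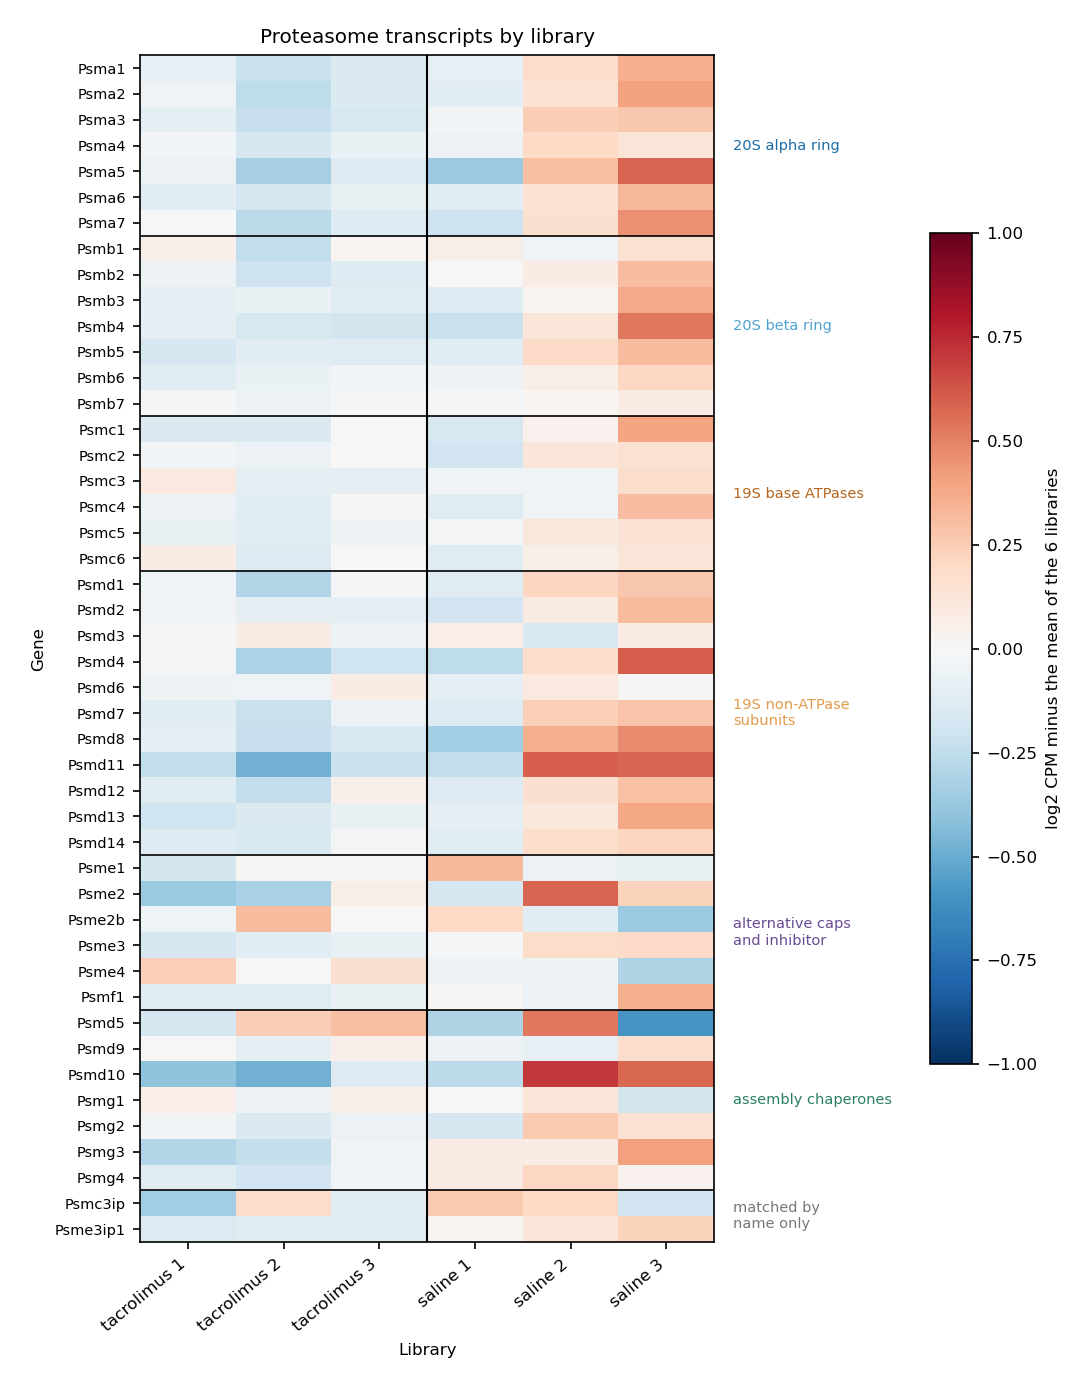
Level of each of the 46 tested proteasome genes in each library, as log2 CPM minus the gene's mean over the 6 libraries; rows are genes grouped by class, columns are libraries with tacrolimus left of saline. Saline replicates 2 and 3 carry most of the values above 0, and saline replicate 1 lies within the range of the tacrolimus libraries in 20 of 46 rows.

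The size of the difference depended on saline replicate 1. Its level lay within the range of the tacrolimus libraries in 20 of 46 members, above that range in 14 and below it in 12. These shares (43.5%, 30.4% and 26.1%) were near those of all genes (49.2%, 25.8% and 25%). Without it, the median log2 fold change of the members was -0.30, and every tacrolimus library was below both remaining saline libraries in 34 of 47 members (72.3%), against 25.5% of all genes, and above both in 2 of 47, against 26.3% of all genes. edgeR then called 5 of 47 members lower, namely Psmd11, Psmd10, Psmd8, Psma5 and Psma3, and 0 higher, against 6.16% of all genes called lower and 7.85% called higher. Over both directions 14.0% of all genes were called in this comparison, so a count of 5 is no result particular to these genes. By class, the median without saline replicate 1 was -0.42 for the alpha ring and -0.30 for the beta ring. It was -0.35 for the non-ATPase subunits and -0.25 for the assembly chaperones. Without saline replicate 3 the median of the members was -0.14. In RNA of whole kidney, fewer cells of a type and less RNA per cell cannot be told apart.

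**Figure D2:**
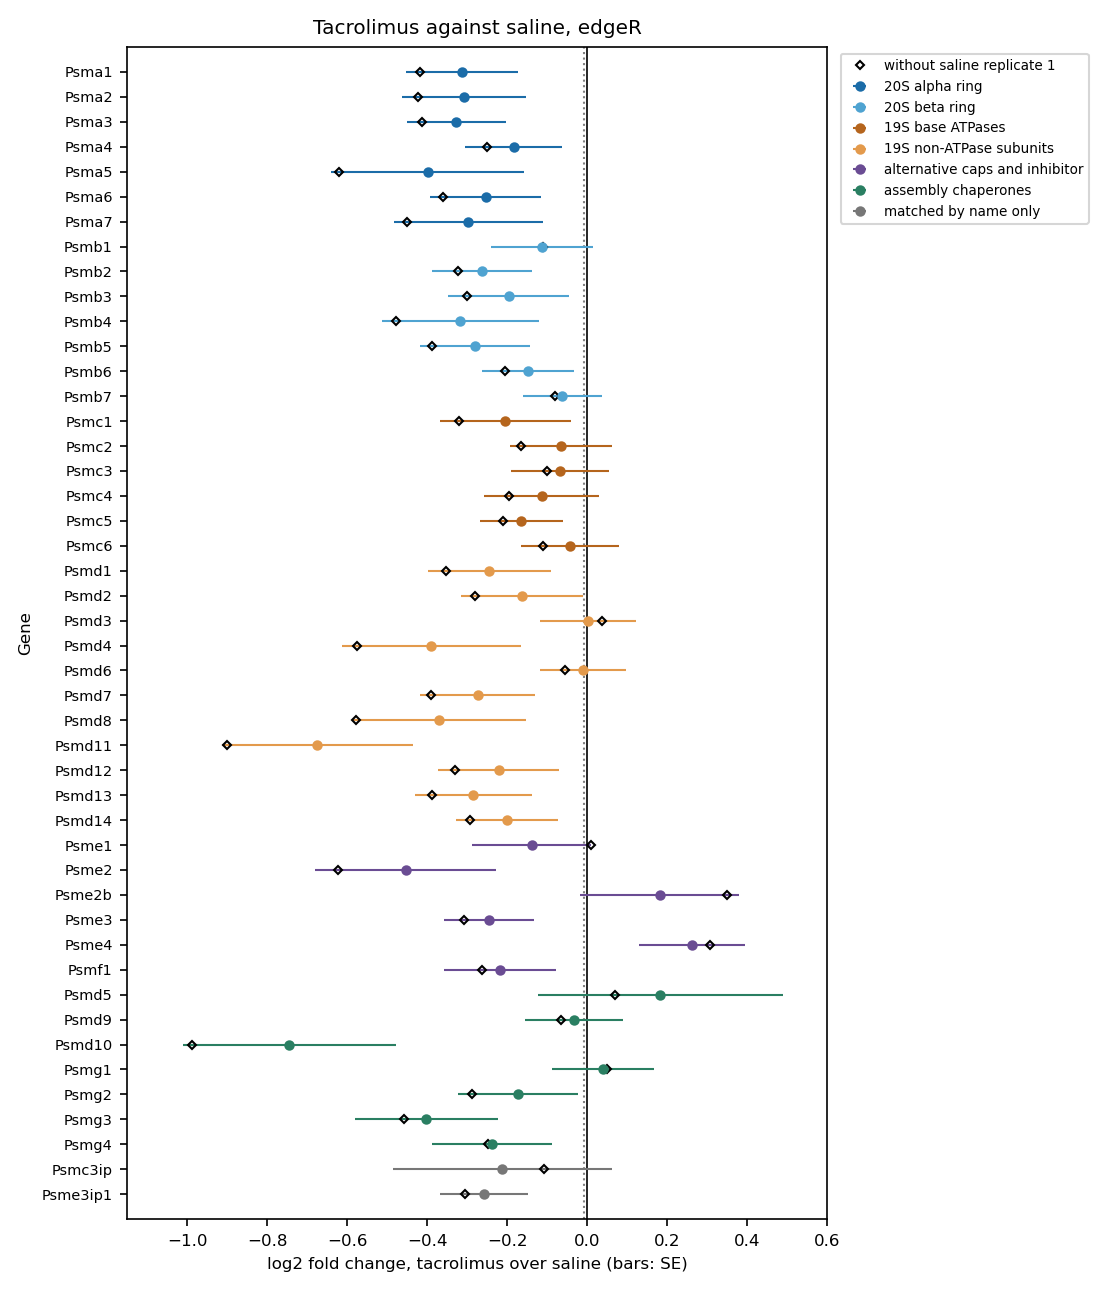
log2 fold change of tacrolimus over saline for each tested proteasome gene, with bars for the standard error; open diamonds give the value without saline replicate 1, and the dotted line marks the median of all genes tested. Most points lie left of 0, with Psmd10 (-0.74) and Psmd11 (-0.67) farthest to the left and Psme4 (0.26) farthest to the right.

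Subunits of the same ring or cap differed in abundance when set per length of transcript. In the alpha ring the mean FPKM over the 6 libraries ran from 77.4 for Psma6 to 20.8 for Psma3. In the beta ring it ran from 177 for Psmb5 to 26.4 for Psmb1. The order within a ring depended on the length used, since the length implied by the deposited FPKM was a median of 1.4 times the listed gene length over 45 members, with a range of 1.0 to 2.75. Per kb of listed length, Psma4 was highest in the alpha ring and Psma3 lowest, and Psmb5 was highest in the beta ring and Psmb7 lowest. Psmb5 therefore led its ring on both scales, whereas the order of Psma4 and Psma6 was not fixed by these data. Differences between groups were not affected, because the length of a gene is the same in every library.

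**Figure D3:**
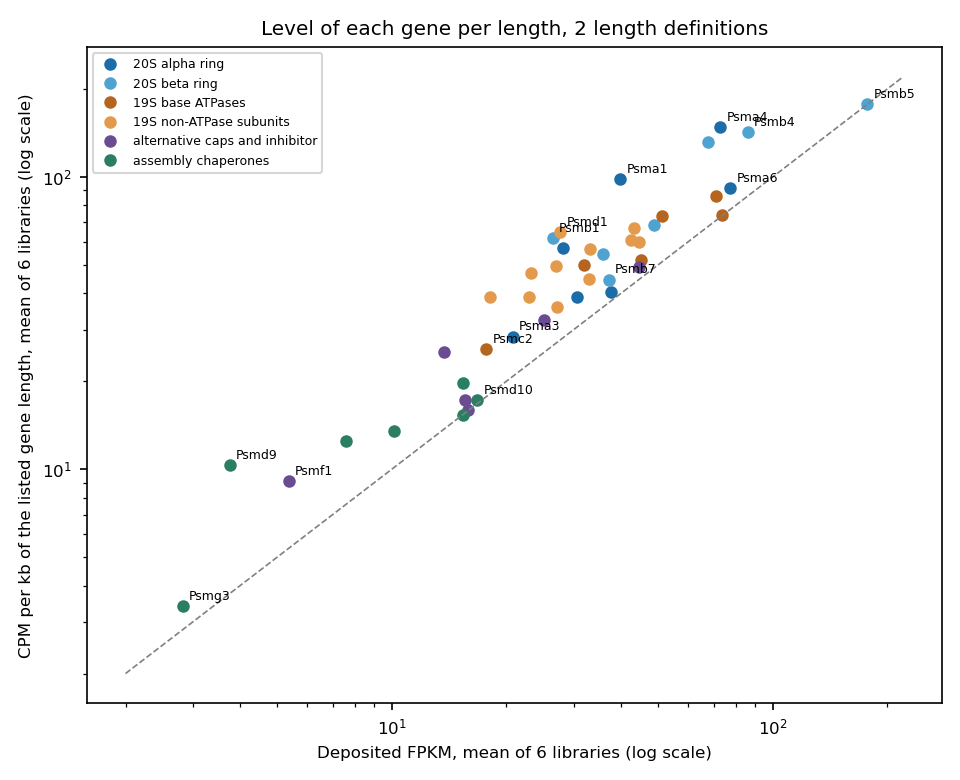
Mean level of each tested proteasome gene, other than those matched by name only, over the 6 libraries on both length scales, FPKM as deposited and CPM per kb of listed gene length, both on log axes. Psmb5 is highest on both scales, at 177 FPKM and 177 CPM per kb, and genes off the diagonal are those for which the lengths differ.

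The alpha ring forms the gate through which proteins enter the core. All 7 alpha subunits had a log2 fold change below 0, with a median of -0.31. In 2 of them, Psma1 and Psma3, the groups did not overlap (28.6%, against 11.0% of all genes in that direction). Psma3 had 75.5, 68.4 and 71.7 CPM with tacrolimus and 78.6, 95.1 and 96.6 CPM with saline. Saline replicate 1 was only just above the highest tacrolimus library, and the other saline libraries were clearly above it. The log2 fold change of Psma3 was -0.33 ± 0.12, with an adjusted p of 0.393 by edgeR, and -0.41 with an adjusted p of 0.0422 without saline replicate 1. Psma1 had 110, 99.8 and 105 CPM with tacrolimus and 110, 132 and 149 CPM with saline, and its log2 fold change was -0.31 ± 0.14. Its groups did not overlap, but tacrolimus replicate 1 and saline replicate 1 were equal to 3 digits. Psma5 had 46.5, 38.4 and 44.4 CPM with tacrolimus and 37.7, 59.9 and 72.8 CPM with saline, and part of its reads could be shared with the pseudogene Psma5-ps, which held 154 to 276 counts. Saline replicate 1 was below all tacrolimus libraries here, and the log2 fold change was -0.40 with all libraries and -0.62 without it, when edgeR's adjusted p was 0.0396. Psma6 had 88.0, 83.8 and 89.9 CPM with tacrolimus and 87.7, 105 and 119 CPM with saline, with overlap at saline replicate 1.

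The beta ring carries the cutting sites, of which Psmb5 encodes the chymotrypsin-like, Psmb6 the caspase-like and Psmb7 the trypsin-like subunit. All 7 beta subunits had a log2 fold change below 0, with a median of -0.20. In 3 of them, Psmb2, Psmb5 and Psmb7, the groups did not overlap (42.9%, against 11.0% of all genes in that direction). Psmb5 had 141, 146 and 146 CPM with tacrolimus and 147, 181 and 197 CPM with saline. The tacrolimus libraries were close together and saline replicate 1 was just above them. The log2 fold change of Psmb5 was -0.28 ± 0.14, with an adjusted p of 0.411 by edgeR. Psmb6 had 116, 121 and 124 CPM with tacrolimus and 122, 132 and 146 CPM with saline, and the groups overlapped. Psmb7 had 125, 122 and 126 CPM with tacrolimus and 126, 129 and 134 CPM with saline, and its log2 fold change was -0.06 ± 0.10. The groups did not overlap, yet the whole range of Psmb7 was narrow, and Nek6, which overlaps it on the other strand, held 34.4% of its count. Among the structural subunits, Psmb2 had 56.6, 50.5 and 53.6 CPM with tacrolimus and 58.5, 61.7 and 72.7 CPM with saline, and Psmb4 had 156, 148 and 146 CPM with tacrolimus and 142, 179 and 238 CPM with saline. Psmb4 overlapped between groups because saline replicate 1 was its lowest library. Psmb1 had 126, 102 and 123 CPM with tacrolimus and 126, 118 and 134 CPM with saline.

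The ATPase ring at the base of the cap unfolds the protein and opens the gate. Its 6 genes had a median of -0.09, and all 6 values were below 0. Without saline replicate 1 that median was -0.18, against -0.13 for the alternative caps and inhibitor, so the order of the classes depended on this library. Only Psmc5 did not overlap between groups (16.7% of the class, against 11.0% of all genes in that direction). It had 97.5, 94.8 and 99.0 CPM with tacrolimus and 102, 111 and 114 CPM with saline. Its log2 fold change was -0.16 ± 0.10, with an adjusted p of 0.456 by edgeR. Psmc1 had 123, 123 and 136 CPM with tacrolimus and 122, 140 and 179 CPM with saline, and saline replicate 1 was the lowest library. Psmc2 had 87.3, 85.2 and 88.8 CPM with tacrolimus and 77.7, 96.7 and 99.0 CPM with saline, and its log2 fold change was -0.06 ± 0.13. Whether the ATPases differed from the other classes was not tested.

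The non-ATPase subunits form the scaffold of the cap, its ubiquitin receptors and the lid, in which Psmd14 is the deubiquitinase. Of 11 genes 10 had a log2 fold change below 0, with a median of -0.24. When saline replicate 1 was kept, 0 were apart between groups, against 21.8% of all genes. Psmd11, a lid subunit that also contacts the core, had the lowest log2 fold change of the class. Psmd11 lies on chromosome 11 at 80319441 to 80364074 on the plus strand of GRCm39. It had 93.2, 79.1 and 94.9 CPM with tacrolimus and 93.3, 168 and 166 CPM with saline. Saline replicate 1 lay within the tacrolimus range, and the other saline libraries were well above it. The log2 fold change of Psmd11 was -0.67 ± 0.24, with an adjusted p of 0.392 by edgeR, and -0.90 with an adjusted p of 0.00956 without saline replicate 1. Psmd8, another lid subunit, had 121, 110 and 116 CPM with tacrolimus and 103, 166 and 180 CPM with saline. Saline replicate 1 was the lowest library of Psmd8, and the log2 fold change was -0.37 ± 0.22 with all libraries and -0.58 without that one, when edgeR's adjusted p was 0.0194. Psmd13, a lid subunit, had 66.7, 69.1 and 73.2 CPM with tacrolimus and 71.8, 82.5 and 100 CPM with saline. Psmd4, a ubiquitin receptor, had 73.7, 59.7 and 64.8 CPM with tacrolimus and 62.4, 84.0 and 113 CPM with saline. In both genes saline replicate 1 lay within the tacrolimus range. Sirt3, which overlaps Psmd13, held 45.3% of its count, and the overlapping pseudogene Gm15542 held 38.5%, so the Psmd13 value is uncertain. Psmd2, a large scaffold subunit, had 175, 167 and 168 CPM with tacrolimus and 157, 191 and 223 CPM with saline. Psmd3, a lid subunit, was the exception in sign, with 162, 173 and 159 CPM with tacrolimus and 172, 147 and 174 CPM with saline and a log2 fold change of 0.00 ± 0.12. That sign turned under 1 other scaling and when 1 of 2 libraries was left out.

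**Figure D4:**
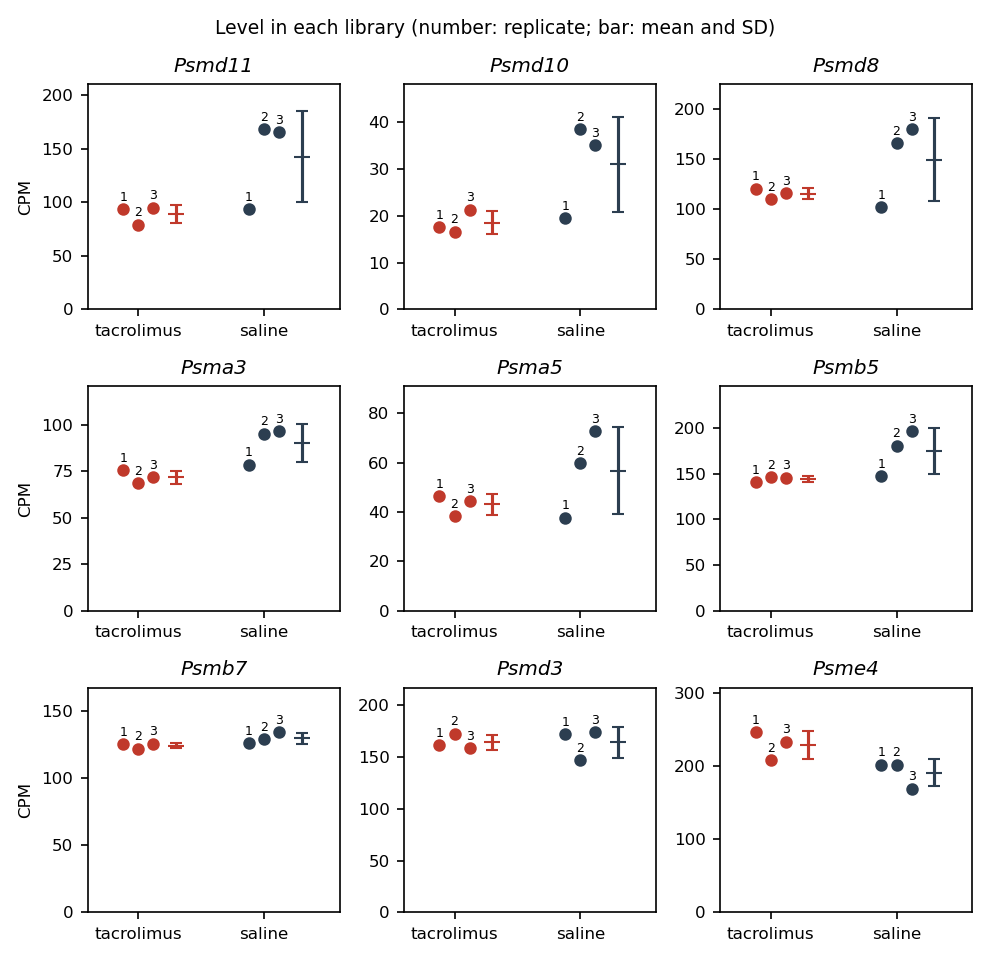
CPM of selected proteasome genes in each library, with tacrolimus left of saline; each point is a library, its number is the replicate, and the bars beside the points are the mean and SD of 3 libraries. In Psmd11 and Psmd10 saline replicate 1 lies among the tacrolimus libraries and saline replicates 2 and 3 lie above all of them.

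Among the alternative caps and the inhibitor 4 of 6 log2 fold changes were below 0, with a median of -0.18. Psme4, which encodes the activator PA200, was the member with the highest log2 fold change. It had 246, 209 and 234 CPM with tacrolimus and 202, 202 and 170 CPM with saline. All tacrolimus libraries were above all saline libraries, and the log2 fold change was 0.26 ± 0.13, with an adjusted p of 0.412 by edgeR and of 0.168 without saline replicate 1. Psme3, a nuclear cap, was on the other side, with 116, 121 and 124 CPM with tacrolimus and 129, 149 and 150 CPM with saline. These groups did not overlap either, and the log2 fold change of Psme3 was -0.25 ± 0.11. Psme1 and Psme2 make up the interferon-inducible cap. The log2 fold change of Psme1 was -0.14 with all libraries and 0.01 without saline replicate 1. Psme2 had 18.1, 18.6 and 24.5 CPM with tacrolimus and 20.8, 35.4 and 27.6 CPM with saline, and saline replicate 1 lay within the tacrolimus range. Psme2 and Psme2b are near-identical copies, and how the authors' counting split reads between them is not given in the sources used here, so both are uncertain. Psmf1, the inhibitor PI31, had 31.67, 31.48 and 32.87 CPM with tacrolimus and 34.59, 32.93 and 44.07 CPM with saline. Its groups did not overlap, but saline replicate 2 was only just above tacrolimus replicate 3. Psme3 and Psmf1 were thus apart with tacrolimus lower, 2 of 6 in the class (33.3%, against 11.0% of all genes). Psme4 was apart with tacrolimus higher, 1 of 6 (16.7%, against 10.7% of all genes).

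The assembly factors build the rings and are not part of the finished particle. Of 7 genes 5 had a log2 fold change below 0, with a median of -0.17. Psmd10, the base chaperone gankyrin, lies on chromosome X at 139849178 to 139857477 on the minus strand of GRCm39 and had the lowest log2 fold change of all members. It had 17.5, 16.6 and 21.3 CPM with tacrolimus and 19.4, 38.4 and 35.0 CPM with saline. Saline replicates 2 and 3 were above all tacrolimus libraries and saline replicate 1 lay among them. The log2 fold change of Psmd10 was -0.74 ± 0.27, with an adjusted p of 0.392 by edgeR, and -0.99 with an adjusted p of 0.0134 without saline replicate 1. Psmg3, a chaperone of core assembly, had 6.51, 6.76 and 7.88 CPM with tacrolimus and 8.55, 8.54 and 10.9 CPM with saline. Its groups did not overlap, as was also the case for Psmg4 (28.6% of the class, against 11.0% of all genes in that direction). The log2 fold change of Psmg3 was -0.40 ± 0.18. Psmg1, which acts at the start of alpha-ring assembly, had 21.6, 19.7 and 21.4 CPM with tacrolimus and 20.5, 22.4 and 18.1 CPM with saline. Psmd5, another base chaperone, had the largest standard error of the members, 0.31, with 46.8, 63.0 and 65.3 CPM with tacrolimus and 42.8, 76.4 and 34.9 CPM with saline. The signs of the log2 fold changes of Psmg1 and Psmd5, 0.04 and 0.18, turned without saline replicate 3. Cutal, which overlaps Psmd5, held 88.4% of its count, so the Psmd5 value is uncertain.

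Of the remaining members, Psme3ip1 and Psmc3ip match the rule by name and are not proteasome subunits. Psme3ip1, which encodes a protein that binds the Psme3 product, had 22.5, 22.6 and 22.7 CPM with tacrolimus and 25.1, 27.0 and 28.9 CPM with saline, without overlap between groups, and the overlapping gene Rspry1 held 163% of its count. Psmc3ip, a meiotic recombination factor, had 2.05, 3.18 and 2.51 CPM with tacrolimus and 3.39, 3.23 and 2.34 CPM with saline, and the overlapping gene Mlx held 1250% of its count. The tissue-restricted core subunits did not pass the filter on low counts with all libraries. Psma8, the testis-type alpha subunit, had 0, 5 and 3 counts with tacrolimus and 9, 17 and 11 counts with saline. Psma8 passed the filter without saline replicate 1, as the 47th member, and edgeR then gave it an adjusted p of 0.162. Psmb11, the subunit of the thymic cortex, had 0 counts in all 6 libraries, which allows up to 3 counts in each.

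The inducible catalytic subunits, which replace Psmb5, Psmb6 and Psmb7 in the immunoproteasome, were scarce beside them. Psmb8 had 5.48, 5.60 and 6.77 CPM with tacrolimus and 5.81, 6.20 and 5.42 CPM with saline. Set per length, Psmb8 reached 1.10 ± 0.122% of Psmb5 with tacrolimus and 0.898 ± 0.159% with saline (FPKM, SD, n = 3 each). Psmb9 reached 0.717 ± 0.189% of Psmb6 with tacrolimus and 0.532 ± 0.235% with saline. The groups overlapped in both ratios, and also in the next. Psmb10 reached 13.4 ± 2.57% of Psmb7 with tacrolimus and 16.4 ± 2.97% with saline. These shares depended on the length used. Per kb of listed length they were 1.95% with tacrolimus and 1.59% with saline for Psmb8, 0.469% with tacrolimus and 0.349% with saline for Psmb9, and 14.5% with tacrolimus and 17.7% with saline for Psmb10. Tap1, which overlaps Psmb9 on the other strand, held 320% of its count, so the Psmb9 value is uncertain. The log2 fold changes were 0.03 for Psmb8, 0.31 for Psmb9 and -0.35 for Psmb10, and edgeR called 0 of 3.

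The summed level of the 31 subunits of core and cap was 3325, 3099 and 3301 CPM with tacrolimus and 3215, 3814 and 4277 CPM with saline. Saline replicate 1 lay within the tacrolimus range here too. Saline replicates 2 and 3 also lay outside the tacrolimus range in sums of tubule markers. The 10 tubular injury markers summed to 2650, 3523 and 7800 CPM with tacrolimus and 7898, 31410 and 31240 CPM with saline. With all libraries all 10 log2 fold changes were below 0. That of Vcam1 was -0.11, and it turned to 0.33 without saline replicate 1. The 10 proximal tubule markers summed to 9804, 10110 and 9824 CPM with tacrolimus and 8419, 3243 and 2625 CPM with saline, and all 10 were above 0. In both sums saline replicate 1 lay outside the tacrolimus range, but nearer to the tacrolimus libraries than to the other saline libraries. Of the injury sum, Spp1 alone held 2210, 2965 and 6955 CPM with tacrolimus and 6806, 26790 and 25080 CPM with saline. The leukocyte markers summed to 70.8, 84.5 and 85.1 CPM with tacrolimus and 79.4, 53.3 and 64.7 CPM with saline, and 6 of 7 tested were above 0. The other one, the macrophage marker Cd68, had a log2 fold change of -1.24. Adgre1 and Csf1r, also macrophage markers, had log2 fold changes of 1.42 and 0.78. On the FPKM scale the same markers summed to 18.6, 23.4 and 24.8 with tacrolimus and 23.3, 23.5 and 33.5 with saline, so the order of the groups in this sum depended on the scale. Of the 9 listed, Cd3e and Ncr1 were near 0 and not tested. The neutrophil markers summed to 6.44, 5.27 and 4.17 CPM with tacrolimus and 10.8, 26.4 and 36.7 CPM with saline, all 6 tested were below 0, and Ly6g was at 0. The part of tubular state and cell composition in the proteasome values was not tested.

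**Figure D5:**
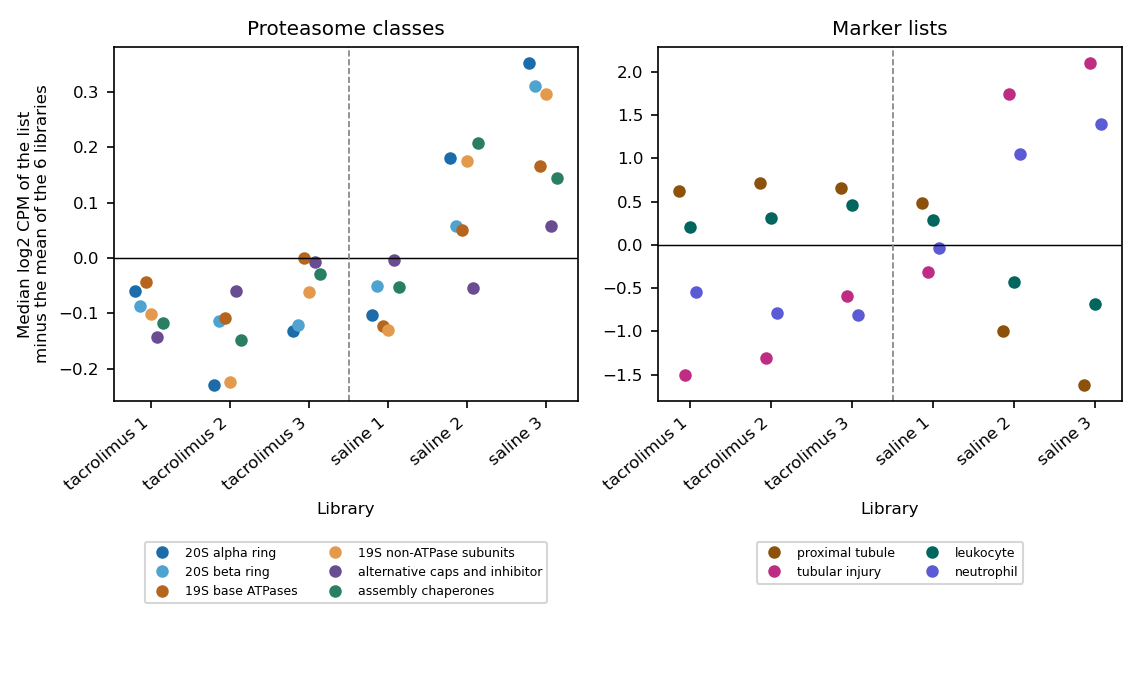
Left, median deviation of each proteasome class from its mean over the 6 libraries (log2 CPM), and right, the same for the marker lists, with tacrolimus left of saline. Saline replicates 2 and 3 are highest for the core classes and for tubular injury and lowest for proximal tubule, while saline replicate 1 is near the tacrolimus libraries.

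Genes that work with the proteasome but lie outside the name rule behaved in a like range. Of 16 tested partners 13 had a log2 fold change below 0, with a median of -0.21, and edgeR called 0 with all libraries. Uchl5, a deubiquitinase of the cap, had 22.8, 19.7 and 22.2 CPM with tacrolimus and 22.9, 34.0 and 32.5 CPM with saline. Usp14, the other cap-bound deubiquitinase of the list, had 49.5, 43.5 and 49.7 CPM with tacrolimus and 46.4, 62.8 and 74.3 CPM with saline. Saline replicate 1 was within the tacrolimus range for Usp14 and just above it for Uchl5. Both were called lower without saline replicate 1, with edgeR adjusted p of 0.0236 and 0.0457. These were 2 of 16 partners, and in that setting 6.16% of all genes were called lower and 7.85% higher. Sem1, a small lid subunit, had 47.8, 46.5 and 49.5 CPM with tacrolimus and 51.4, 58.1 and 68.5 CPM with saline. Of the 6 genes of ubiquitin and its activating enzymes 4 were below 0. Without saline replicate 1 only Rps27a, which encodes ubiquitin fused to a ribosomal protein, was called lower, with an edgeR adjusted p of 0.0275. That was 1 of 6, against the same 6.16% of all genes. Rps27a had 89.1, 88.3 and 97.5 CPM with tacrolimus and 92.5, 128 and 159 CPM with saline. Of the 8 genes of the VCP segregase, which pulls tagged proteins from complexes and membranes, 7 were below 0. In this list 0 were called with or without saline replicate 1, against 0.0114% and 14.0% of all genes.

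The NFE2L1 list holds the factor, the enzymes that release it and its partners and relatives, and 5 of its 8 genes had a log2 fold change below 0 and 3 above. Nfe2l1 had 82.1, 74.4 and 74.6 CPM with tacrolimus and 72.4, 54.4 and 58.8 CPM with saline. Every tacrolimus library was above every saline library, and the log2 fold change was 0.32, with an adjusted p of 0.401 by edgeR and of 0.044 without saline replicate 1. Ddi2, the protease that activates NFE2L1 by cleavage, had 119, 118 and 120 CPM with tacrolimus and 110, 83.4 and 70.4 CPM with saline. These groups did not overlap either, and the log2 fold change was 0.44, with an adjusted p of 0.393 by edgeR. Nfe2l2, which encodes the oxidative stress factor NRF2, had 133, 123 and 119 CPM with tacrolimus and 120, 194 and 268 CPM with saline, and its log2 fold change was -0.63. Saline replicate 1 lay within the tacrolimus range for Nfe2l2, unlike the other saline libraries. Maff, a small MAF partner of both factors, had 4.37, 4.15 and 6.30 CPM with tacrolimus and 7.17, 20.8 and 41.0 CPM with saline. Its groups did not overlap, and the log2 fold change of -2.22 had an adjusted p of 0.392 by edgeR and of 0.00819 by DESeq2. With all libraries, Maff, Mafk and Keap1 were apart with tacrolimus lower, 3 of the 8 genes, against 11.0% of all genes. Nfe2l1 and Ddi2 were apart with tacrolimus higher, 2 of the 8 genes, against 10.7% of all genes. Without saline replicate 1, edgeR's adjusted p was 0.0208 for Ddi2, 0.021 for Nfe2l2 and 0.0093 for Maff. In that setting 2 of the 8 genes were called higher and 2 lower, against 7.85% and 6.16% of all genes. Transcript levels do not measure the processing of NFE2L1 protein.

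NFE2L1 and NFE2L2 bind the antioxidant response element, so the promoters of the members were searched for its core. RefSeq promoter windows, from 250 bases before to 50 bases after a transcript start, matched 40 of the 48 members in 44 windows of GRCm38.p6, a build other than that of the gene table. The letters TGACNNNGC, read on both strands, were found in 6 of 40 members (15%), against 14.0% of the 27025 genes in the table and 16.8% of the 11900 genes also tested here. The matches were in Psmb5, Psmb6, Psmc6, Psmd9, Psmd12 and Psme4, and 0 of 6 overlapped the other motifs searched. CCAAT was in 37.5% of members and 41.1% of all genes, and TGACTCA was in 2.5% of members and 5.95% of all genes. The following 5 windows are given in the direction of transcription, with the match in capitals. Psmb5 and Psmb6 are shown as catalytic subunits with a match close to the start, Psme4 as the member with the highest log2 fold change, which has a match on the opposite strand, and Psmd11 and Psmd10 as the members with the lowest log2 fold changes, without a match.
Psmb5, chr14:54617946-54618245, minus strand: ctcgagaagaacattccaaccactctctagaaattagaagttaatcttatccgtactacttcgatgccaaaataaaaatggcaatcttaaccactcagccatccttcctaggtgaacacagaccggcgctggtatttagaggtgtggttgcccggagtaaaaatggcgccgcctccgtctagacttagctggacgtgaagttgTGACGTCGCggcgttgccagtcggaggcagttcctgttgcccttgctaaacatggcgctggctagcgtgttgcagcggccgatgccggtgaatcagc
Psmb6, chr11:70525107-70525406, plus strand: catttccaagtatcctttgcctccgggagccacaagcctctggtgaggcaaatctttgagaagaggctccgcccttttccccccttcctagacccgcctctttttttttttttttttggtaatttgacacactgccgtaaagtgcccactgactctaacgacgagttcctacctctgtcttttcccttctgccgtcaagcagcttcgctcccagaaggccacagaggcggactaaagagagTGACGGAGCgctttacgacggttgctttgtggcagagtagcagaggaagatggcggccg
Psme4, chr11:30771525-30771824, plus strand: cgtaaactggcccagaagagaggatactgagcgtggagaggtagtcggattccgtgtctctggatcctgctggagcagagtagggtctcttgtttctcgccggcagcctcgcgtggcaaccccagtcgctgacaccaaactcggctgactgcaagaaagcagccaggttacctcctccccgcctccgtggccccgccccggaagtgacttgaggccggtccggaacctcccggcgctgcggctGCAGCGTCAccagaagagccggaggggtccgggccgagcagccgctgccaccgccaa
Psmd11, chr11:80428365-80428664, plus strand: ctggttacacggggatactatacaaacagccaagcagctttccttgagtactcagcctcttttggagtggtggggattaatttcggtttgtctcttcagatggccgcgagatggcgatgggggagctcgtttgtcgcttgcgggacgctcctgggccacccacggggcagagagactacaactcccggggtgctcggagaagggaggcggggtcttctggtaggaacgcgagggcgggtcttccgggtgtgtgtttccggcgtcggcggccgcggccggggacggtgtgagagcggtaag
Psmd10, chrX:140956662-140956961, minus strand: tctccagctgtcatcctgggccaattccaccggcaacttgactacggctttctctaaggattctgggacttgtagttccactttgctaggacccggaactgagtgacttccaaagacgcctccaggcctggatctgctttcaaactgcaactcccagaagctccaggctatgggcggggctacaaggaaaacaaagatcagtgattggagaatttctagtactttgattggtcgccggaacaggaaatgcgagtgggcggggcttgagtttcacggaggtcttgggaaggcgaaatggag
The matches began 47 bases before the start in Psmb5, 9 in Psmb6 and 7 in Psme4. The 6 members with a match had log2 fold changes of -0.28 (Psmb5), -0.22 (Psmd12), -0.15 (Psmb6), -0.04 (Psmc6), -0.03 (Psmd9) and 0.26 (Psme4). Hpd, which overlaps Psmd9 on the other strand, held 74.1% of its count, so the Psmd9 value is uncertain. Psmd11 and Psmd10 had no match in these windows. A match describes the sequence and does not show that a factor binds there.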

How the data were processed

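Bulk RNA-seq of whole kidney was taken from a deposited gene table, with 3 libraries in each group. The sample titles give the group and the replicate number, and the design text of the series gives dose, times and 6 animals per group. Per the file headers, the authors deposited a read count and an FPKM value per gene and library, with gene positions and lengths. The deposited counts are whole numbers and not normalized. The submitters' processing notes name GRCm39 as the build. The aligner, the counter and the use of strand are not given in these sources. Reads shared by overlapping genes or near-identical copies may therefore be split in ways that are not known.

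Counts were tested with edgeR 4.0.16 in R 4.3.3 after filterByExpr (minimum count 10, minimum total 15), with TMM factors of 0.942 to 1.03 and robust glmQLFit and glmQLFTest, two-sided, on all 17557 genes that passed. The biological coefficient of variation was 0.304. At 38443534 to 44476844 counts a library, the spread between libraries sets the error of the tested members, and floors cover counting error only. No pair of libraries agreed within sampling noise. The test was also tried on simulated data. The replicate numbers did not pair the libraries. Alternatives were other scaling factors, no filter on low counts, DESeq2 1.42.0, limma 3.58.1 on log2(FPKM + 1) and log2(FPKM + 0.1), a block for the replicate number, and leaving out each library.

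The members and gene lists were chosen with earlier results of these data known. Of each class, the members with the 2 smallest p-values and with the highest and lowest FPKM are described, with up to 4 genes of each other list. Psma5, Psmb4, Psmb6, Psmb7, Psmd3, Psmd4, Psmd5, Psmd8, Psme4 and Psmg1 were added after their values were seen. Promoter sequences are from RefSeq on GRCm38.p6. A table line without a gene is not analysed here. A gene was left out of a marker list and is not reported here.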

Additional observations from a re-analysis of the deposited data

How the results depend on the processing

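edgeR called 2 of 17557 genes with all libraries, DESeq2 called 344, limma called 1 on log2(FPKM + 1) and 1 on log2(FPKM + 0.1), and the fit with a replicate block called 1. Leaving out 1 library gave 0 to 2534 genes, the highest without saline replicate 1. Members called were 0 under every alternative other than leaving out a library, and 0 to 5 there. Members whose groups did not overlap numbered 12 of 46 (26.1%, against 21.8% of all genes). With 1 library left out they numbered 12 to 36, with 19 of 47 without tacrolimus replicate 3 (40.4%, against 31.5% of all genes) and 36 of 47 without saline replicate 1 (76.6%, against 51.8%). With RLE size factors they numbered 9 (19.6%, against 21.8%), with library totals 15 (32.6%, against 20.7%). The median log2 fold change of the members stayed below 0, from -0.30 (without saline replicate 1) to -0.14 (without saline replicate 3), against -0.21 with all libraries, and it was -0.21 with the replicate block. The same-number libraries had correlations of deviations of -0.01 to 0.03, so the numbers gave no pairing. The sign turned for Psmd3 with upper-quartile factors (-0.0093), and with 1 library left out the log2 fold change ran from -0.073 to 0.045 for Psmd3, from -0.077 to 0.092 for Psmb8, from -0.030 to 0.59 for Psmd5 and from -0.037 to 0.12 for Psmg1. The cause was not tested.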
